A study of Mus musculus with 3 samples.

Results

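The regions described here were stretches of mouse embryonic stem cell (ESC) chromatin enriched for trimethylated lysine 27 of histone H3 (H3K27me3) in which wild-type H2A.Z (H2A.Z WT) was not called nearby. A region was a member if no H2A.Z WT region of either threshold lay within 1 kb of it. Of the 16970 H3K27me3 regions, 5184 met this condition, a share of 30.5%, and 11786 did not and served as the comparison. Members were selected on the positions of the H3K27me3 and H2A.Z WT regions themselves, so the count and the distance to H2A.Z WT are given as a description.

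H3K27me3 is written by Polycomb repressive complex 2, and in ESCs it covers the promoters of silent developmental regulators, where it can spread over whole gene clusters. The starting points of this mark in mammals are commonly CpG islands, stretches of DNA rich in unmethylated CpG dinucleotides. H2A.Z, which replaces core H2A in some nucleosomes, is found around the start sites of genes and, in ESCs, also at promoters that carry H3K27me3.

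Each of the 3 groups held 1 ChIP-Seq library, and the labels gave every sample as V6.5 (129SvJaexC57BL/6) ESCs. The H3K27me3 library came from cells with the genotype WT and was precipitated with an antibody against the mark. The H2A.Z WT library and that of H2A.Z AP3, in which divergent residues of the acidic patch were exchanged for those of H2A, came from KH2-derived lines by the treatment text. In these lines a doxycycline-inducible CMV promoter drove a YFP-tagged transgene, the cells' own H2A.Z was knocked down with a hairpin, and the tag was precipitated with an anti-GFP antibody. By these genotypes H3K27me3 and H2A.Z WT were not mapped in the same cells, although the line that gave the H3K27me3 library could not be settled. No marker could be checked, as the data hold positions only. Regions were listed at a Poisson threshold of 1e-9 and again at 1e-12, in steps of 25 bp and without heights, so the read depth is unknown. With 1 library per group no difference could be set against replicates, and the intervals below are 95% Wilson intervals for shares and order-statistic intervals for medians, which cover counting error only and treat neighbouring regions as independent. All coordinates are those of mm9 (NCBIM37).

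The 4 stretches below show what the members looked like as sequence. Each is 300 bases of the forward strand, taken as near the middle of its region as annotated UTRs allowed, in lower case with every CpG dinucleotide in capitals. The first and the second are from the members of rank 1 and 5 by length, and lie at chr2:116381613-116381912 in intergenic sequence and at chr10:126969726-126970025 beside the start of Nxph4. The next, at chr10:80805703-80806002, is from a member over the start of Gipc3 and was chosen after its values were seen, as the most CpG-rich member of at least 1000 bp. The last, at chr10:42302413-42302712, is not from a member but from the longest H3K27me3 region with H2A.Z WT, which spans the start of Nr2e1.
Longest member: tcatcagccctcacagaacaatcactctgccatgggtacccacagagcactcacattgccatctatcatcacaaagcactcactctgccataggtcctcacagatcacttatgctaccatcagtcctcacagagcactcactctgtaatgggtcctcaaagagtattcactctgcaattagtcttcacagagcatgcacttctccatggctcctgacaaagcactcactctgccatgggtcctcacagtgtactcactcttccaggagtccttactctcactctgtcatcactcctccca
Member of rank 5: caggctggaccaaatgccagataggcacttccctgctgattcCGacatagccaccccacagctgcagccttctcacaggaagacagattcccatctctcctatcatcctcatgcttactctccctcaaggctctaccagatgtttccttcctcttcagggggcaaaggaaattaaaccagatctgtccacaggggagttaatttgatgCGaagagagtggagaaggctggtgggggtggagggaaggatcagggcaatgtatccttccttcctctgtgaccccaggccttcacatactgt
CpG-rich member: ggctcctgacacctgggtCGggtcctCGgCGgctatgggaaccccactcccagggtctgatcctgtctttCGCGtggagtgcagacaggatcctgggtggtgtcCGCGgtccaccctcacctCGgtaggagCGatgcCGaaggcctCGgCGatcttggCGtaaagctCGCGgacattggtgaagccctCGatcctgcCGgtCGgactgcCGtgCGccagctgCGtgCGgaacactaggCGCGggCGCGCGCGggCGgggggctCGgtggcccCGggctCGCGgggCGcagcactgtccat
Longest region with H2A.Z WT: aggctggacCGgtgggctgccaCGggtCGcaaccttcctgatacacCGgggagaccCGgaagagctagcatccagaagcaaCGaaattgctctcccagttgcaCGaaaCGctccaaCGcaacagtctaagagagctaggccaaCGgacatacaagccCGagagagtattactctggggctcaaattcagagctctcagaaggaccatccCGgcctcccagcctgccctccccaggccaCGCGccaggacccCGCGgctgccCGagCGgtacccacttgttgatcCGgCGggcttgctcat
The first held 0 CpG, the second held 2, the CpG-rich member held 34, and the region with H2A.Z WT held 20. The longest member was also repetitive within itself. In the 300 bases at its midpoint, 65.3% of bases equalled the base 58 bp further on, whereas the highest such match at any offset from 5 to 100 bp had a median of 32.9% over all members. Only 21 members (0.405%, interval 0.265 to 0.619) reached 50% in this measure, against 29 of the other regions (0.246%, 0.171 to 0.353), so the sequence of the longest member was not typical of the set.

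Members were short. Their median length was 150 bp (interval 150 to 150), against 350 bp (325 to 375) for regions with H2A.Z WT, and together they covered 1.30 Mb against 8.02 Mb. The window for H2A.Z grows with the region, so part of this difference is built into the rule. The shortest class, of 25 to 75 bp, held 1617 members (31.2%), while 182 members (3.51%) exceeded 1 kb and 20 (0.386%) exceeded 2 kb. Among the other regions these shares were 15.9%, 21.5% and 7.17%. Read the other way, members made up 46.3% of all H3K27me3 regions of 25 to 75 bp, 41.0% of those of 100 to 200 bp, 17.6% of those of 525 to 1000 bp and 2.31% of those over 2000 bp. The difference in median length had the same direction on 19 of 20 chromosomes, the exception being X, where both medians were 125 bp.

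**Figure D1:**
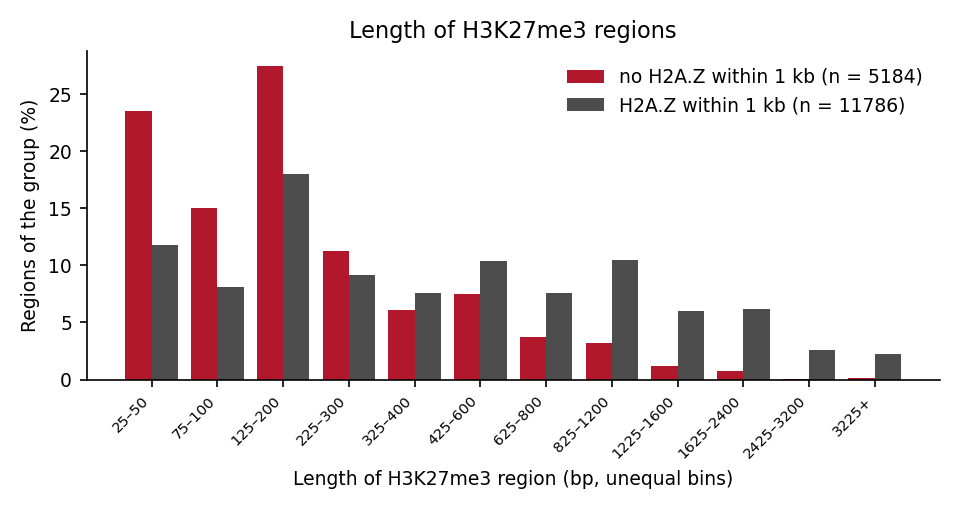
Length of H3K27me3 regions in bp, in bins of unequal width, as the percentage of regions in each group (red, 5184 members; grey, 11786 regions with H2A.Z WT within 1 kb). Members outnumber the others in share up to 300 bp and are rare above 1 kb.

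The only trace of the strength of enrichment in these data is whether a region still held a region at 1e-12. This was the case for 2801 members (54.0%, interval 52.7 to 55.4) and for 8681 other regions (73.7%, 72.9 to 74.4), with 67.7% over all regions. Within classes of length the gap disappeared. Of the regions of 25 to 75 bp, 4.45% of members and 4.38% of the others passed the stricter threshold, and of those of 225 to 500 bp, 91.9% and 92.3% did. Weighted to the lengths of the members, the other regions gave 54.0% as well. Length was counted in the same library, so this comparison describes the call and not the amount of H3K27me3.

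The members lay beside start sites more often than on them. A midpoint within 2 kb of a protein-coding start was found for 1133 members (21.9%, interval 20.8 to 23.0), against 59.9% (59.1 to 60.8) of regions with H2A.Z WT and 48.3% of all H3K27me3 regions. The other regions gave 57.7% when weighted to the members' lengths, and members were lower on 20 of 20 chromosomes. H2A.Z is found around start sites, so leaving out regions near H2A.Z WT also leaves out regions at starts. The direction of this difference is therefore set in part by the rule, on every chromosome. The remaining members lay in intergenic sequence (2210, 42.6%, against 19.4% of the others), introns (1587, 30.6%, against 14.0%) and exons (254, 4.90%, against 6.69%). Of the members away from coding starts, 108 were within 2 kb of a noncoding transcript of a protein-coding gene, 59 of a processed transcript, 48 of a lincRNA, 23 of a pseudogene and 23 of a miRNA, and the other classes had at most 6 each. With starts of any annotated type counted, the share within 2 kb rose to 27.2% of members, 65.8% of the others and 54.0% of all regions. The rise was of like size in each group.

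Finer distances showed a hollow at the start itself. Within 500 bp of a start there were 132 members (2.55%), whereas 16.6% of the other regions had their midpoint there. The distance class of 2 to 5 kb held 1557 members (30.0%) against 12.4%, and the median distance to a start was 4612 bp (interval 4373 to 4868) against 1408 bp. The flanks were occupied on both sides, with 14.2% of members from 5 to 2 kb upstream and 15.9% from 2 to 5 kb downstream, against 4.64% and 7.76% of the others. Where H2A.Z WT was called at a start, a gap of 1 kb keeps members off that start by construction. Of the 1133 members within 2 kb of a start, 769 (67.9%, interval 65.1 to 70.5) had H2A.Z WT within 2 kb of that same start, and 694 (61.3%, 58.4 to 64.1) had an H3K27me3 region with H2A.Z WT nearby at that start.

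**Figure D2:**
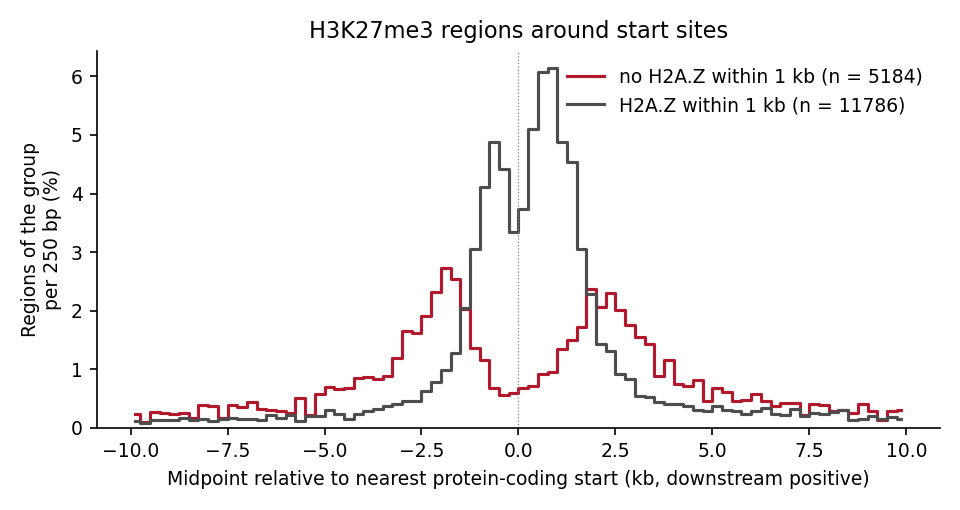
Midpoints of H3K27me3 regions relative to the nearest protein-coding start, in kb with downstream positive, as the percentage of each group per 250 bp (red, members; grey, regions with H2A.Z WT within 1 kb). Members dip at the start and peak on both flanks near 2 kb, where the regions with H2A.Z WT have already fallen.

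Most members had further H3K27me3 regions close by, and so did most of the other regions. The median gap to the nearest H3K27me3 region was 600 bp for members and 425 bp for the others. After neighbouring regions no more than 3 kb apart had been joined, the 16970 regions formed 6213 domains, of which 2757 contained a member. Domains that mixed members with regions near H2A.Z WT numbered 1636. They held 3461 members (66.8%, interval 65.5 to 68), against 44.1% of the other regions and 51.0% of all H3K27me3 regions. A mixed domain needs a region of each kind, and the other regions outnumber the members. The higher share among members is therefore partly set by the sizes of the groups. The members' share also depended on the settings. It was 44.2% when gaps of up to 1 kb were joined and 20.02% when members were required to lie over 5 kb from H2A.Z WT. A further 899 members (17.3%) made up 297 domains of at least 2 members with no other region, and 824 (15.9%) stood alone. Of the other regions, 6590 (55.9%) lay in 3456 domains without members. Of these domains 1802 had at least 2 regions, and the rest were single regions. In mixed domains 2727 members (78.8%, 77.4 to 80.1) lay outside the outermost region with H2A.Z WT and 734 (21.2%) between such regions. Members of mixed domains thus lay mostly towards the edges, although a domain with a single region near H2A.Z WT can have members only outside it.

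The kinds of domain differed in size. Among domains of at least 2 regions, the median span was 4425 bp in mixed domains, 1875 bp in domains of members only and 2225 bp in the 1802 domains without members. A span of at least 5 kb was reached by 690 mixed domains and by 35 domains of members only, and 2497 members (48.2%, interval 46.8 to 49.5) lay in such long domains, against 32.1% of the other regions. A mixed domain has at least 2 regions and must be long enough to leave 1 kb from H2A.Z, so its larger span is partly set by its definition. The members' promoter share was 22.0% in mixed domains, 21.5% in domains of members only and 21.7% among those alone. Their intergenic share was 40.6%, 45.1% and 48.5% in the same order, and their intron share was 31.96%, 30.0% and 25.6%. Those alone were the shortest, with a median of 100 bp against 175 bp in both kinds of joined domain. Of those alone, 31.6% held a region at 1e-12, against 58.3% in each of the joined kinds. This share moved with length, from 4.45% of members of 25 to 75 bp to 91.9% of those of 225 to 500 bp. The kinds of domain were not compared at equal length.

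The distance to H2A.Z WT is tied to these kinds, since a mixed domain must hold a region within 1 kb of H2A.Z WT. The median distance was 2175 bp (interval 2125 to 2250) over all members, and 3975 members (76.7%) had H2A.Z WT over 1 and up to 5 kb away. For the 390 members (7.52%) more than 20 kb from H2A.Z WT this leaves little room for a mixed domain, and 0 lay in one. Just inside the limit, 848 members lay 1025 to 1250 bp from H2A.Z WT. They had a median length of 175 bp, a promoter share of 42.0% and 1.2 CpG per 100 bp. Just outside it, 982 regions at 775 to 1000 bp had the same median length and CpG content and a promoter share of 49.2%, so the limit of 1 kb cut through regions of like length and CpG content. H2A.Z AP3 was within 1 kb of 1.77% of the former and 11.9% of the latter. Only 13.6% of AP3 regions had no H2A.Z WT within 1 kb, so this difference is largely set by the rule.

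The mixed domains with most members were led by the Hox clusters, whose genes encode the homeodomain factors that pattern the body axis. The HoxB domain at chr11:96112801-96243550 spanned 131 kb and held 73 H3K27me3 regions, 42 of them members, which made up 29.2% of its H3K27me3-covered bases. The HoxC domain at chr15:102738376-102872800 had 38 members among 77 regions (27.8% of covered bases), and HoxD at chr2:74486526-74606850 had 31 of 70 (17.8%). HoxA at chr6:52099526-52227775 had 20 of 70 (7.52%). Apart from Hoxb13, which lay in a separate domain, the 4 clusters lay in joined domains of 120 to 134 kb. H2A.Z WT regions, however, covered 24.2% of the HoxA span against 12.6% at HoxD, 7.64% at HoxC and 7.34% at HoxB. The member share was lowest in the cluster with most H2A.Z WT, as the rule itself favours. HoxA lies on chromosome 6, where H2A.Z WT regions were dense throughout, and the part of this density in the difference was not tested. The other domains with over 20 members were at Nr2f2, an orphan nuclear receptor (chr7:77466401-77517375, 21 of 41 regions), and at Hoxb13 (chr11:96028201-96068175, 21 of 28).

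**Figure D3:**
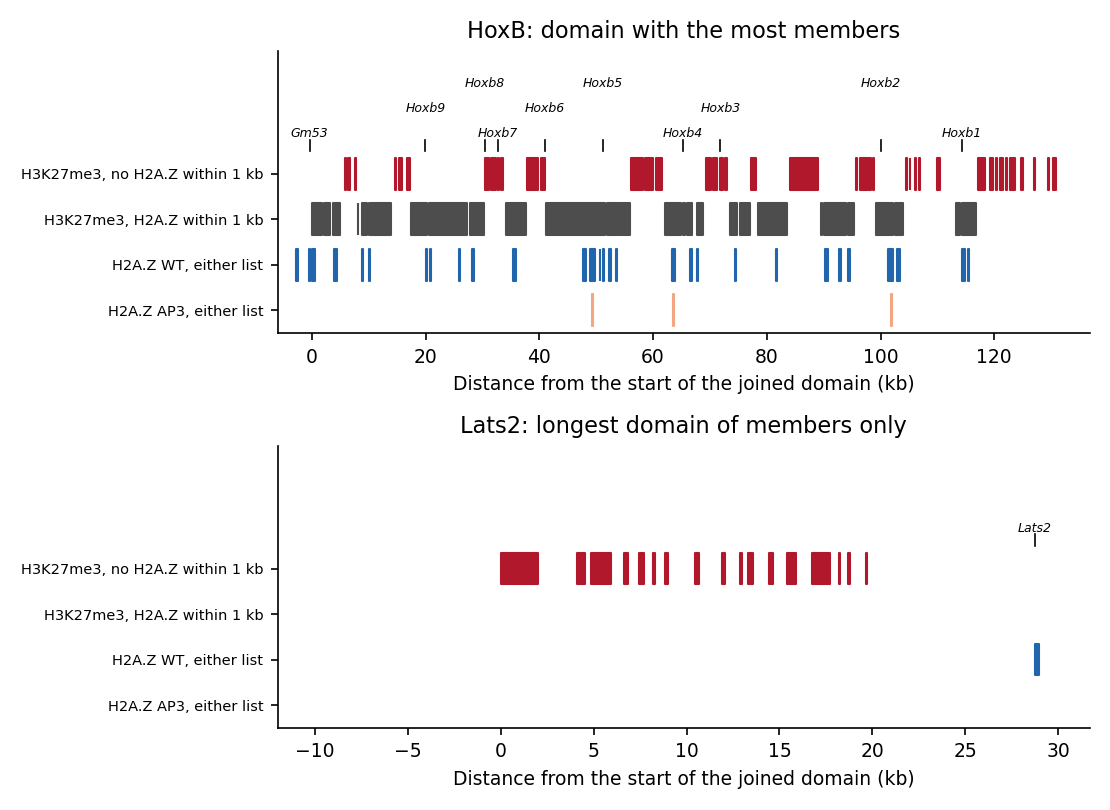
Regions along 2 joined H3K27me3 domains, in kb from the domain's start, with ticks at the most upstream start of each protein-coding gene. At HoxB (top) 42 of 73 H3K27me3 regions are members (red) and sit among grey regions near H2A.Z WT (blue), with few H2A.Z AP3 regions (orange); at Lats2 (bottom) all 17 regions are members and the nearest H2A.Z WT region is 9.05 kb away. Bars narrower than the line width are drawn at a minimum width.

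The 3 longest domains of members only were of different kinds. The longest, at chr14:58348476-58368175, spanned 19700 bp in 17 regions that covered 6850 bp, and 12 of the regions held one at 1e-12. It lay over several annotated starts of Lats2, which encodes a kinase of the Hippo pathway, and the nearest H2A.Z WT region, 9.05 kb away, was at the gene's most upstream start. The next, at chr5:33795801-33813225, spanned 17425 bp in 9 regions and lay 19.2 kb from the start of Nkx1-1, a homeobox gene, with H2A.Z WT 17.6 kb away. The third, at chr2:116373951-116388925, was the most solid. Its 7 regions covered 12475 of 14975 bp and 7 of 7 held a region at 1e-12, yet none exceeded 0.6 CpG per 100 bp. The nearest protein-coding start, of Tmco5, was 316 kb away and H2A.Z WT 228 kb away.

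That domain contained the longest member of all, of 7375 bp (chr2:116378076-116385450), which is the repetitive sequence shown first. All other members were below 5 kb. The next was 4975 bp in an intron near Hoxb3, 1.25 kb from H2A.Z WT. It was followed by 4050 bp near Hoxc8 (chr15:102815476-102819525), 3450 bp at 7.27 kb from Nkx2-1 (chr12:57628901-57632350) and 3350 bp at Nxph4 (chr10:126968201-126971550). Nkx2-1 encodes a homeodomain factor of lung, thyroid and forebrain. These 4 all belonged to mixed domains and so continued a stretch of H3K27me3 that had H2A.Z WT elsewhere.

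Isolation was as frequent among members as among the rest. No other H3K27me3 region lay within 10 kb of 567 members (10.9%), against 11.8% of regions with H2A.Z WT. The longest isolated member was 2325 bp in an exon, 3.67 kb from the start of Zfp46 (chr4:135844826-135847150). The next were at the promoters of Ephx3, an epoxide hydrolase (1325 bp, chr17:32325051-32326375), and Gsn, which encodes the actin-severing protein gelsolin (1275 bp, chr2:35112026-35113300).

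Members held fewer CpG than the other H3K27me3 regions. In the 500 bp at their midpoint they held a median of 1.2 CpG per 100 bp (interval 1 to 1.2), against 2.2 in regions with H2A.Z WT. The whole genome held 0.834 per 100 bp, which is lower than the members' median but is a mean and not a median of windows. A density of at least 4, taken as CpG-rich, was reached by 147 members (2.84%) and by 25.1% of the other regions. Members fell from 62.1% of the H3K27me3 regions with up to 0.5 CpG per 100 bp to 35.8% of those above 1 and up to 2, 9.78% above 3 and up to 4 and 3.62% above 6. Their median was below that of the others on 20 of 20 chromosomes. The difference was found in each class of position, with medians of 1.2 against 2.4 in promoters, 1.4 against 3 in exons, and 1 against 1.8 in both introns and intergenic sequence. It was not found at the limit of 1 kb. Other regions had a median of 3.2 where they overlapped H2A.Z WT, 1.6 at 25 to 750 bp and 1.2 at 775 to 1000 bp. Members at 1025 to 1250 bp had 1.2 as well. GC content differed in the same direction, with 48.4% against 52.4%. Uniqueness of the sequence was close in both groups, as all 5 of the 32-base words sampled per region occurred once in the genome for 96.3% of members and 97.1% of the others.

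**Figure D4:**
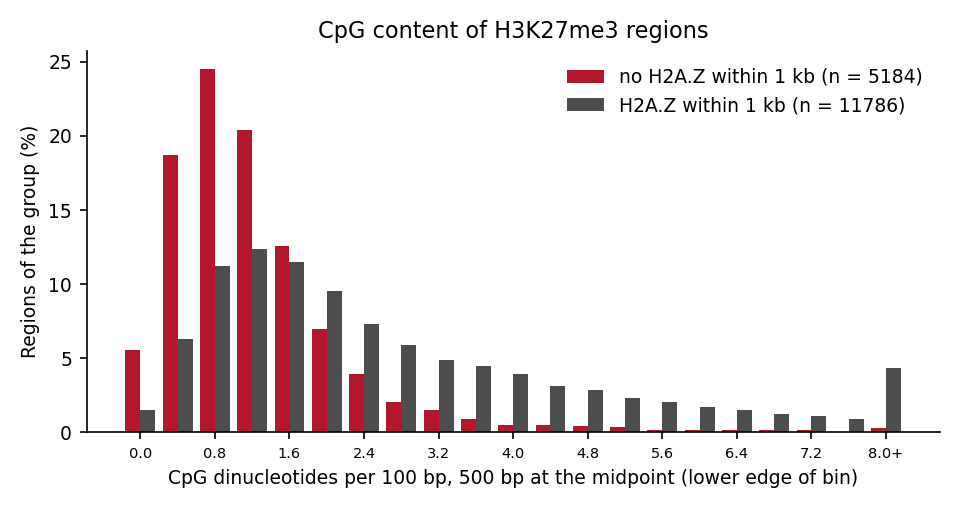
CpG dinucleotides per 100 bp in the 500 bp at the midpoint of each H3K27me3 region, as the percentage of each group (red, 5184 members; grey, 11786 regions with H2A.Z WT within 1 kb). The members peak near 1 CpG per 100 bp and hardly reach beyond 4, where 25.1% of the other regions lie.

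A few members were as rich in CpG as an island. The example printed above, at chr10:80805101-80806850, covered 1750 bp over the start of Gipc3, a gene needed for hearing, with 12.4 CpG per 100 bp in its 500-bp window, and H2A.Z WT was 2.4 kb away. In Agap2, which encodes a GTPase-activating protein, a member of 2150 bp had 8 CpG per 100 bp (chr10:126527326-126529475). At Fbll1 a member of 1075 bp had 7.8 and H2A.Z WT was 27.1 kb away (chr11:35610626-35611700). These were chosen after their values were seen.

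Read by gene, H3K27me3 without any H2A.Z WT at the start was rare. Of 22342 protein-coding genes, 3984 had H3K27me3 within 2 kb of a start site and 984 of those (24.7%) had a member there. Of all 3984 genes with H3K27me3, 3807 had H2A.Z WT within 2 kb of a start and 177 (4.44%) did not. Among the 984 with a member, 820 (83.3%) had H2A.Z WT there, a lower share, as the rule favours. It was not always within 2 kb of the same start as the member. At Lats2, for example, members covered 3412 bp and H2A.Z WT 1750 bp around different starts. There remained 164 genes, or 4.12% of the genes with H3K27me3, that had a member and no H2A.Z WT. In 156 of the 164 the members were the only H3K27me3 regions there. The member-covered length had a median of 325 bp (interval 275 to 525) and ran from 25 to 3561 bp. Their start sites had a median of 6.4 CpG per 100 bp (interval 5.2 to 8) against 7.2 (7 to 7.4) for genes with both H3K27me3 and H2A.Z WT, and 64.6% of them reached 4 CpG per 100 bp against 77.5%.

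The 5 of these genes with the largest coverage were led by Nxph4, which encodes a neurexophilin, a secreted neuronal glycoprotein, with 3561 member-covered bp (ENSMUSG00000040258.5, start at chr10:126971615). Bmi1, a subunit of Polycomb repressive complex 1, had 3425 bp across its 6 annotated start sites (ENSMUSG00000026739.7, chr2:18598645). Hoxc8 had 3326 bp (ENSMUSG00000001657.6, chr15:102821053). Sync, which encodes an intermediate filament protein of muscle, had 2475 bp (ENSMUSG00000001333.8, chr4:128964861), and Itga7, the laminin-binding integrin alpha 7 of muscle, had 2307 bp (ENSMUSG00000025348.7, chr10:128370869). The nearest H2A.Z WT lay between 3.97 kb from the most upstream start of Bmi1 and 8.50 kb from that of Hoxc8. Their starts were rich in CpG, from 6.4 per 100 bp at Itga7 to 11 at Bmi1. The large coverage and the lack of an H2A.Z WT call within 2 kb are the terms by which these 5 were chosen. A start with at least 4 CpG per 100 bp was not particular to them. It was found at 77.5% of genes with both H3K27me3 and H2A.Z WT.

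Developmental regulators with H3K27me3 had members at rates on either side of the 24.7% of all such genes. Every one of the 40 Hox genes had H3K27me3 and 16 of them (40%) had a member, and 2 (5%, against 4.12% of all genes with H3K27me3) had a member without H2A.Z WT, Hoxc8 and Hoxb7, the latter with 1730 member-covered bp. Hoxb3 had 2786 bp of members beside 851 bp of H2A.Z WT, and Hoxc4 had 1825 bp beside 550 bp. Outside the clusters, 121 of 130 homeobox and Pax genes had H3K27me3. Of these, 28 (23.1%) had a member and 0 had a member without H2A.Z WT. Lhx2, a regulator of forebrain and eye, had 2200 bp of members and 2152 bp of H2A.Z WT within 2 kb of its starts, and Pax6, a regulator of the eye, had 1825 bp and 5937 bp. At these genes both were present at different distances from the starts.

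In other families of transcription factors the numbers of genes with a member and no H2A.Z WT were 0 or 1. These are too few to set against the 4.12% of all genes with H3K27me3. Here and below, genes that lacked H2A.Z WT are counted among those with a member. Of the forkhead genes 27 had H3K27me3, 9 (33.3%) had a member and 1 lacked H2A.Z WT, namely Foxj1, the regulator of motile cilia, with 1150 bp of members. Of the bHLH genes, which drive neural and mesodermal fates, 35 had H3K27me3, 4 (11.4%) had a member and 1, Hes3, lacked H2A.Z WT, with 1425 bp. Of the T-box genes 5 of 12 had a member, of which Tbx3 had most (1350 bp), and 0 lacked H2A.Z WT. Sox and Gata genes (4 of 18) and nuclear receptors (7 of 24) likewise had 0 without H2A.Z WT.

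Ligands, receptors, channels and transporters were counted in the same way. Of all genes with H3K27me3, 4.12% had a member and no H2A.Z WT, and the counts below are too small to set against this share. Among Wnt, Fgf, hedgehog, Bmp and Gdf ligands 12 of 47 (25.5%) had a member and 2 (4.26%) lacked H2A.Z WT, Fgf18 with 1325 bp and Gdf11 with 1100 bp. Among neurotransmitter receptors 14 of 62 (22.6%) had a member and 4 (6.45%) lacked H2A.Z WT. These were Drd2, the dopamine D2 receptor (975 bp), Gabrd (850 bp), a GABA receptor subunit, Glra1 (800 bp), a glycine receptor subunit, and Htr2c. Ion channels had 20 of 88 (22.7%) with a member and 1 (1.14%), Cacng2, without H2A.Z WT. Solute carriers had 25 of 91 (27.5%) and 4 (4.40%), and members covered only 50 bp (Slc25a25) to 325 bp (Slc24a1) at these 4. Other G protein-coupled receptors had 14 of 50 and 1 (2%), Mc3r.

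The remaining lists gave small numbers. Imprinted genes had 12 with H3K27me3 and 6 with a member, of which Grb10, an adaptor that restrains growth, had 2222 bp beside 575 bp of H2A.Z WT, and 0 lacked H2A.Z WT. Clustered protocadherins, adhesion proteins of neurons, had 4 of 18 and 0. Olfactory and vomeronasal receptors had H3K27me3 at 3 of 1456 genes and keratins at 8 of 97, and neither list had a member. With lists of this size the shares have wide counting error, and no list was tested against the rest.

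H2A.Z AP3, which the rule did not use, was called near few members. An AP3 region lay within 1 kb of 58 members (1.12%, interval 0.867 to 1.44), against 30.9% of the other regions and 21.8% of all H3K27me3 regions. Overlap by at least 1 bp was found for 17 members (0.328%). AP3 regions mostly sit with H2A.Z WT, and only 1983 of 14599 (13.6%) had none within 1 kb, so a low share here is largely fixed by the choice of members. The longest members with AP3 were at Cilp2 (1950 bp, chr8:72409426-72411375), in an intron of the noncoding gene Dlx6os1 at 8.15 kb from the start of the homeobox gene Dlx6 (1925 bp, chr6:6804226-6806150), in an exon of Kiss1r, the kisspeptin receptor (1475 bp, chr10:79384126-79385600), and near Olig3, a neural bHLH factor (1200 bp, chr10:19078526-19079725).

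The share of members varied by chromosome. On 17 autosomes it ran from 25.6% to 35.5% with a median of 31.2%, while it was 22.2% on chromosome 6 and 20.8% on chromosome 8. On X it was 50.2% (102 of 203 regions, interval 43.4 to 57.1). These were also the chromosomes where H2A.Z WT regions stood apart in number, with 49.3 per Mb on chromosome 6, 57.1 on 8 and 4.16 on X, against 19.3 to 45.6 on the other 17. H3K27me3 regions were sparse on X too, with 1.22 per Mb against 4.39 to 11.5 on the autosomes. The part of H2A.Z density in the share of members was not tested. On X 41.2% of members were in mixed domains, against 56.9% to 74.7% across the autosomes, and 38.2% were in domains of members only. One of these X domains, of 9 regions over 12875 bp at Bcor (chrX:11658551-11671425), which encodes a subunit of a variant Polycomb complex, was the fourth longest of its kind and is named here after its values were seen.

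**Figure D5:**
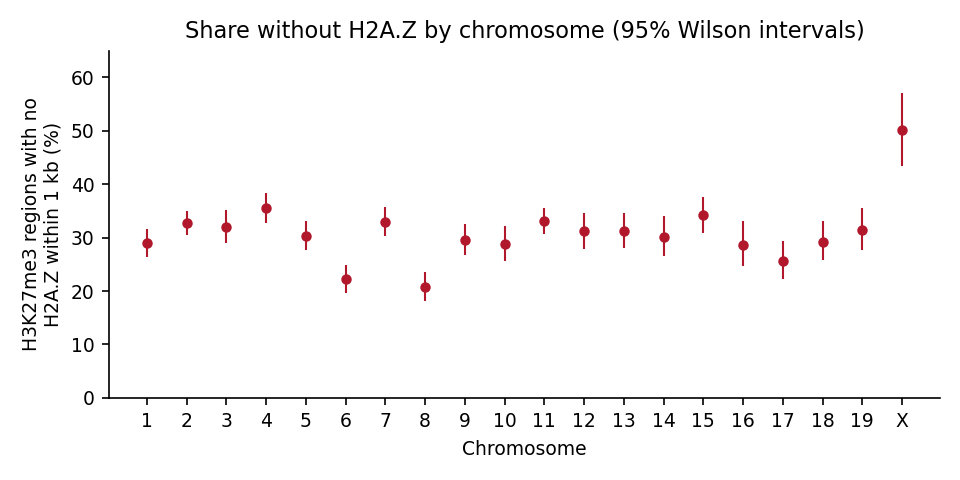
Percentage of H3K27me3 regions with no H2A.Z WT within 1 kb on each chromosome, with 95% Wilson intervals as bars. Chromosomes 6 (22.2%) and 8 (20.8%) are lowest and X (50.2%) is highest, while the other 17 lie between 25.6% and 35.5%.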

How the data were processed

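ChIP-Seq libraries from ESCs (1 per group, 3 in all) were analysed as lists of enriched regions. The authors aligned single-end reads to mm9 with Bowtie 0.12.3, extended them, allocated them to bins of 25 bp and called bins by a Poisson model with a minimal enrichment over input. The deposited values are region starts and ends, with no counts, heights or p-values, and the methods name the threshold of 1e-9 only. Each library was called on its own. Groups follow the labels for genotype and antibody. The input was not analysed here.

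H3K27me3 regions at 1e-9 were compared with the union of the H2A.Z WT lists at 1e-9 and 1e-12. The gap is the number of bp between region edges. Regions were assigned by midpoint to promoter (within 2 kb of one of 45993 start sites of protein-coding transcripts), then exon, intron and last intergenic sequence, with GENCODE vM1. Genes that share a start region share its members. No test was run, since a group held 1 library. Members and gene lists were chosen with earlier results of these data known. The regions named were the 5 longest members, the 3 longest domains of members only, the 5 genes with most member-covered bases and no H2A.Z WT, the 3 longest isolated members and up to 4 genes of a list with most member-covered bases. The mixed domains with most members, the longest members with H2A.Z AP3, the genes of each list without H2A.Z WT and any other region or gene are outside that rule and were named after their values were seen. Alternatives covered the thresholds, the distance to H2A.Z, short regions, the promoter window, the joining gap and chromosomes. The scripts were tested on simulated data and ran in Python 3.11.15 with NumPy 2.4.6, pandas 2.3.3, SciPy 1.17.1, pysam 0.24.0, numba 0.67.0 and Matplotlib 3.10.9, with samtools 1.23.1 for the genome. The sequence of 1 of the longest members is not reported here.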

Additional observations from a re-analysis of the deposited data

Results flagged for a closer look

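The H3K27me3 list at 1e-12 held signal that the comparisons above do not use. Of its 14058 regions, 455 shared no base with the list at 1e-9, and 143 of these (31.4%, interval 27.3 to 35.8) had no H2A.Z WT within 1 kb, with a median length of 75 bp. Of the 143, 113 (79.0%) lay within 3 kb of a region of the list at 1e-9. A stricter threshold should give a subset, so these regions were listed for a closer look.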

How the results depend on the processing

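The number of members was 2804 with a distance of 2 kb and 1209 with 5 kb, and lay between 3543 and 7469 under the other 6 settings, of which the one without chromosomes 6 and 8 was added after seeing the data, as was the share in mixed domains on autosomes alone (67.3%). With 5 kb, 52.6% of members held a region at 1e-12, 18.0% were in promoters and 20.02% in mixed domains. With H3K27me3 taken at 1e-12, 25.9% were in promoters and 69.1% in mixed domains. With regions of at least 100 bp, the median length was 200 bp and 76.5% held a region at 1e-12. The promoter share was 6.25% within 1 kb of a start, 51.9% within 5 kb, and 27.2% with the starts of all annotated transcripts, a setting chosen after seeing the data. The share in mixed domains was 44.2% with joining across 1 kb and 74.4% across 10 kb. H2A.Z AP3 was near 0.501% of members at 1e-12 and overlapped 0.328%. In each of these settings for which the other regions have a value, members stayed shorter, less often in promoters, less often kept at 1e-12 and less often near H2A.Z AP3 than the others. The genes with a member and no H2A.Z WT numbered 126 to 149 under 3 settings, and the CpG median stayed at 1.2 under 2. No paired analysis was possible because each group held 1 library. The unknown read depth limits every absence of H2A.Z to what was called.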
